A study of Mus musculus with 5 samples.

Results

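Genes of Hedgehog signalling and ventral neural tube patterning were followed in the neural tubes of EpoR-null mouse embryos and their littermates. They were taken by symbol, as 10 of the 23284 symbols in the deposited count tables, and comprise the ligand Shh, the receptors Ptch1 and Smo, the transcription factors Gli1, Gli2 and Gli3, and the ventral transcription factors Foxa2, Nkx2-2, Nkx6-1 and Olig2. PolyA RNA was sequenced from 2 wild type samples (EpoR +/+), 1 heterozygous sample (EpoR +/-) and 2 EpoR-null samples (EpoR -/-). The wild type and heterozygous samples together formed the 3 littermate controls. EpoR encodes the erythropoietin receptor. The mice came from crosses of heterozygotes, so the EpoR deletion was present in every cell of the null embryo, blood included, and not in the neural tube alone. No group received a treatment, the strain is not given in the sources used here, and the age field reads E8.5 where the methods name a slightly later stage. The sample titles write Epo where the genotype field writes EpoR, and the genotype field is followed here. Nothing in the sources says whether a library held 1 neural tube or several, so the tests below measure the spread between these samples.

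Sonic hedgehog is secreted by the notochord and then by the floor plate at the ventral midline of the neural tube. It binds PTCH1, which otherwise holds SMO inactive, and active SMO working through the primary cilium turns GLI2 and GLI3 from repressors towards activators of transcription. Gli1 and Ptch1 are themselves transcribed in response to the signal, so that their RNA levels are widely used as readouts of pathway activity, and PTCH1 also limits the signal by binding the ligand. Graded signalling sets up ventral domains in which FOXA2 marks the floor plate, NKX2-2 the progenitors next to it, OLIG2 the motor neuron progenitors and NKX6-1 a broader ventral territory.

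Of the 10 genes, Ptch1 and Gli3 passed the test described below, and their promoters are shown for that reason. The windows are RefSeq sequences on GRCm38.p6, 250 bases before to 50 bases after an annotated transcription start, written 5′ to 3′ on the strand of the gene, with the 50 bases from the start onward in capitals. The Ptch1 window lies at chr13:63565686-63565985 on the minus strand and the Gli3 window at chr13:15463473-15463772 on the plus strand. Both windows lie inside the annotated gene, which reaches further upstream, to 63573598 for Ptch1 and to 15463235 for Gli3. The starts shown are therefore internal, and the most upstream starts of these 2 genes were not searched.
Ptch1: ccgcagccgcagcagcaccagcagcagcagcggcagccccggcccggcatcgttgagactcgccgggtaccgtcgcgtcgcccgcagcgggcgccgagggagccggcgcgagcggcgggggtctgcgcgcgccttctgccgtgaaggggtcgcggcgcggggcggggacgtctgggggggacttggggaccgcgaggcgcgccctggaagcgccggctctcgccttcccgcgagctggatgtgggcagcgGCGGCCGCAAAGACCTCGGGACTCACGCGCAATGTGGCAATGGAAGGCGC
Gli3: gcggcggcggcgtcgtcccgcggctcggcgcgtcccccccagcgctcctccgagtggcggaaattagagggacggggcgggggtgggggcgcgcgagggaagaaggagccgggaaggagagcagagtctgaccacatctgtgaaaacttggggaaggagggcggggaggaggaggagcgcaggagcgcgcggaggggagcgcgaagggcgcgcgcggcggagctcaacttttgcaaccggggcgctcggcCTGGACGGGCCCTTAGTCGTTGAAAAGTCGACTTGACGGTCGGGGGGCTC
Windows were given for 8 of the 10 genes (10 windows, 3 of them for Foxa2), and Shh and Gli1 had none. The GLI binding consensus GACCACCCA, searched on both strands, was in none of the 10 windows and in 0.253% of all 32851 windows of the same length. Its inner part ACCACCC was in 4.61% of all windows and in the window of 1 member, Gli2, starting 205 bases before the start (position -205) and on the opposite strand, so that it reads GGGTGGT below (capitals, with 10 bases on each side, chr1:119053808-119053834, minus strand).
Gli2: tccccctccaGGGTGGTgtccccccac
GC content was 76.3% in the Ptch1 window and 71.0% in the Gli3 window, against a median of 52.7% over all windows. Other annotated starts and distant enhancers of these genes were not searched.

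Reads counted on genes numbered 23894580 and 41169218 in wild type samples 1 and 2, 23014710 in the heterozygote, and 19316126 and 30378879 in EpoR-null samples 1 and 2, so that 3 reads correspond to between 0.0715 and 0.152 CPM (read counts scaled to a common library size, with the TMM correction for library composition). The least abundant of the 10 genes, Nkx2-2, had from 76 to 234 reads, so counting error weighs most on its values. Epor, the targeted gene, had 57, 68 and 11 reads in wild type 1, wild type 2 and the heterozygote, and 7 and 19 reads in the EpoR-null samples. The groups overlapped for Epor, and which part of the gene the allele lacks is not given in the sources used here. The defining markers of the labelled tissue (Sox1, Sox2, Sox3, Pax6, Hes5 and Nes) were all present and summed to between 1358 and 1566 CPM in controls and to 1417 and 1201 CPM in EpoR-null samples 1 and 2. Nes weighed most in this sum and stood at 777 and 368 CPM in EpoR-null samples 1 and 2. The other markers ran the opposite way, each higher in sample 2: Sox1 (79.0 and 122 CPM), Sox2 (220 and 266), Sox3 (93.1 and 126.5), Pax6 (144 and 198) and Hes5 (104 and 121). The sum therefore does not measure an equal neural share. Libraries also carried RNA of neighbouring tissues in unequal amounts. The 5 primitive erythroid markers summed to 1075, 593 and 43.3 CPM in wild type 1, wild type 2 and the heterozygote and to 1676 and 955 CPM in EpoR-null samples 1 and 2. The 7 somite markers summed to 41.4, 39.7 and 7.78 CPM against 81.7 and 29.9 CPM, in the same order, so the heterozygote held the least of both tissues.

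Compared to controls, EpoR-null neural tubes had lower expression of Ptch1 and Gli3, and no member was higher. Ptch1 fell to 32.1% of the control level and Gli3 to 65.7%. The remaining 8 genes did not pass the test, which was the exact test of edgeR with the thresholds of the study (p < 0.001 and FDR < 0.05, adjusted over all 12703 genes with more than 1 CPM in at least 2 samples). All 10 members were among the genes tested. At these thresholds 2 of 10 members were lower and 0 were higher, where 3.84% of all tested genes were lower and 0.929% were higher. With unadjusted p below 0.05 in the exact test, 4 members were lower and 0 higher, against 11.9% and 7.88% of all tested genes. DESeq2 called the same 2 genes, and the quasi-likelihood F-test of edgeR called none, with an FDR of 0.0590 for Ptch1 and for Gli3. This was the lowest FDR of any gene in that test, but a tied value that also held for Sufu (below). It therefore gives Ptch1 and Gli3 no leading place, and their unadjusted p in the quasi-likelihood F-test was 3.44e-05 and 0.000543. On counts simulated for these 5 samples, the exact test and DESeq2 made clearly more false calls than an FDR of 0.05 allows, and the quasi-likelihood F-test came nearest to it. The simulation held no trend with transcript length, unlike the data (below), so it does not give the share of false calls here. Log2 fold changes ran from -1.64 (Ptch1) to -0.01 (Foxa2), with a median of -0.39 over the 10 members and of 0.06 over all tested genes. Both EpoR-null samples lay below all 3 controls for 4 members (Ptch1, Gli2, Gli3 and Nkx6-1), which was the case for 22.1% of tested genes, and the groups overlapped for the other 6.

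**Figure D1:**
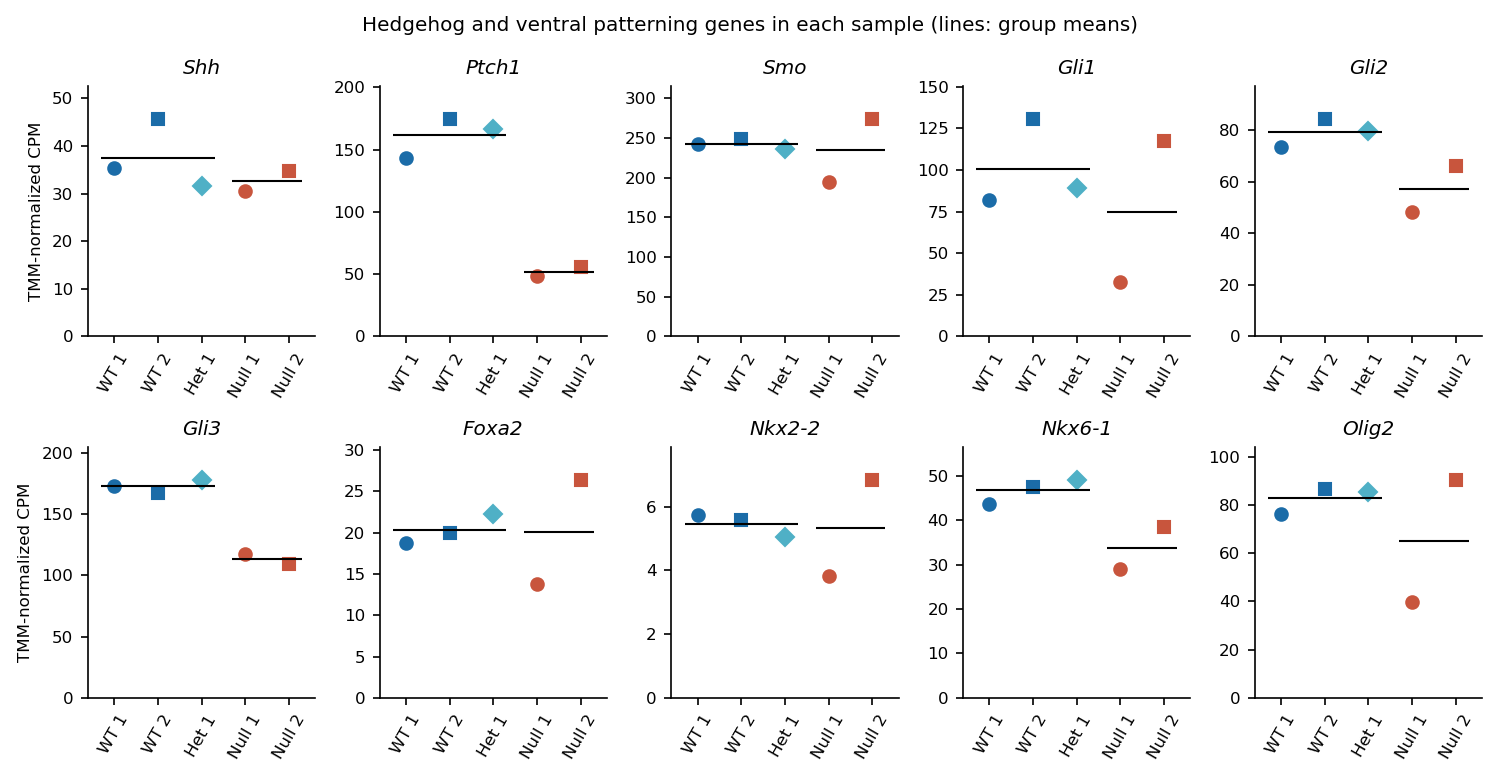
TMM-normalized CPM (vertical axis, from 0) of the 10 genes in the 2 wild type (WT), 1 heterozygous (Het) and 2 EpoR-null samples, 1 point per sample, with lines at the means of the 3 controls and of the 2 EpoR-null samples. Ptch1 stands at 48.2 and 55.6 CPM in the EpoR-null samples and at 143 CPM or more in the controls, and for Gli1 and Olig2 EpoR-null sample 1 lies far below the other 4 samples.

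Ptch1, the receptor that both binds the ligand and is induced by it, had the largest difference of the members. It had 143, 175 and 166 CPM in wild type 1, wild type 2 and the heterozygote (3464, 7337 and 3849 reads), and 48.2 and 55.6 CPM in EpoR-null samples 1 and 2 (954 and 1578 reads). The highest EpoR-null value was thus well below the lowest control, and the EpoR-null samples stood close to each other. Controls averaged 161 ± 16.4 CPM (SD, n = 3) and EpoR-null samples 51.9 ± 5.22 CPM (SD, n = 2). On the log2 scale this was a fold change of -1.64 with a standard error of 0.16 (p = 9.37e-22 in the exact test of edgeR, FDR 5.95e-18), the second lowest p among the 12703 genes. With each sample left out in turn it stayed between -1.747 and -1.54. Ptch1 occupies 63508328 to 63573598 of chromosome 13 (GRCm38, minus strand).

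The ligand and the signal transducer did not follow Ptch1. Shh had 35.3, 45.7 and 31.5 CPM in the controls (wild type 1, wild type 2, heterozygote) and 30.6 and 34.8 CPM in the EpoR-null samples. The groups overlapped, and the control spread was larger than the difference (log2 fold change -0.20, standard error 0.23, FDR 0.687). Smo, the most abundant member, had 243, 249 and 236 CPM in controls, within a narrow range, and 195 and 274 CPM in EpoR-null samples 1 and 2, one below and one above all controls (log2 fold change -0.05, standard error 0.19, FDR 0.933). Without EpoR-null sample 1, the log2 fold change of Smo was 0.18. Shh lies on chromosome 5 of GRCm38 (28456815 to 28467256, minus strand) and Smo on chromosome 6 (29735503 to 29761365, plus strand).

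Ratios of reads within a library, which do not depend on the scaling between libraries, showed the same separation for Ptch1. They rest on the same counts as the fold changes and so are not separate evidence. Transcript length, which is greatest for Ptch1 (below), was not corrected for in them. Per read of Smo there were 0.590, 0.702 and 0.704 reads of Ptch1 in the controls and 0.248 and 0.203 in EpoR-null samples 1 and 2. For each read of Shh the controls held 4.06, 3.82 and 5.28 reads of Ptch1 and the EpoR-null samples 1.57 and 1.60. Against Gli3, which also fell, the ratio was 0.826, 1.05 and 0.936 in controls and 0.411 and 0.508 in EpoR-null samples. Only the ratio to Gli1, of these 4, overlapped between groups, with 1.749, 1.33 and 1.86 reads of Ptch1 per read of Gli1 in controls and 1.48 and 0.474 in EpoR-null samples 1 and 2.

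**Figure D2:**
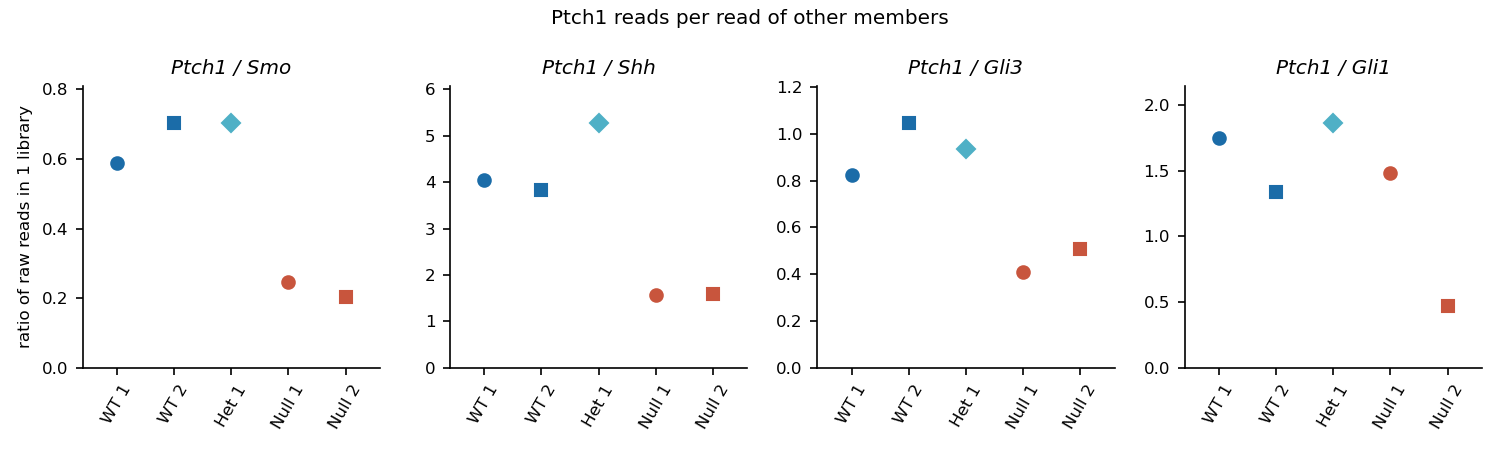
Raw reads of Ptch1 divided by raw reads of Smo, Shh, Gli3 and Gli1 in the same library (vertical axes, from 0), 1 point per sample. Both EpoR-null samples lie below all controls for Smo, Shh and Gli3, while for Gli1 EpoR-null sample 1, at 1.48, lies between the controls.

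Of the GLI factors only Gli3 was called, and differences between the 3 were not tested. Gli3, which in the absence of signal is processed to the main repressor of the pathway, had 173, 167 and 178 CPM in wild type 1, wild type 2 and the heterozygote against 117 and 109 CPM in EpoR-null samples 1 and 2 (173 ± 5.43, SD, n = 3, and 113 ± 5.59, SD, n = 2). Neither EpoR-null sample reached the lowest control, and the difference was -0.61 on the log2 scale with a standard error of 0.13 (p = 6.43e-06 in the exact test of edgeR, FDR 0.000514). The call was lost with a correction for transcript length and GC content (-0.21, FDR 0.9999) and without wild type sample 1, where the difference was -0.60 and p rose to 0.00112 in the exact test of edgeR, past the threshold. Gli2, the main activator, had 73.3, 84.4 and 79.7 CPM in controls and 48.2 and 66.1 CPM in EpoR-null samples. Both EpoR-null values were below every control, and the difference, -0.47 on the log2 scale (standard error 0.19, FDR 0.1251), did not pass the thresholds. Gli1, a target of the pathway like Ptch1 and itself an activator, had 81.8, 131 and 89.2 CPM in controls, and 32.5 and 117 CPM in EpoR-null samples 1 and 2. The first of these was the lowest of the 5 samples and the second was higher than 2 of the 3 controls, a 3.61-fold difference within the EpoR-null group (log2 fold change -0.43, standard error 0.54, FDR 0.729). Gli1 is on chromosome 10 (127329882 to 127341974, minus strand), Gli2 on chromosome 1 (118834132 to 119053619, minus strand) and Gli3 on chromosome 13 (15463235 to 15730026, plus strand) of GRCm38.

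Among the ventral transcription factors no member passed the thresholds, and the EpoR-null samples disagreed. Olig2, which specifies motor neuron progenitors, had 76.3, 86.8 and 85.4 CPM in controls, 39.8 CPM in EpoR-null sample 1 and 90.4 CPM in EpoR-null sample 2. These lay below and above all controls respectively, for a mean difference of -0.35 on the log2 scale (standard error 0.35, FDR 0.643). Foxa2, the floor plate factor, had 18.8, 19.9 and 22.2 CPM in controls and 13.8 and 26.3 CPM in the EpoR-null samples. Nkx2-2, which marks the most ventral progenitors, had 5.74, 5.58 and 5.06 CPM in controls and 3.84 and 6.83 CPM in the EpoR-null samples. In both genes EpoR-null sample 1 was below all controls and sample 2 above them, so that the group means nearly coincided (log2 fold changes -0.01, standard error 0.33, and -0.03, standard error 0.39). Nkx6-1, expressed across the ventral progenitors, was the one ventral factor with both EpoR-null samples (29.0 and 38.6 CPM) below all controls (43.7, 47.5 and 49.0 CPM), at -0.47 on the log2 scale (standard error 0.20, FDR 0.143). On GRCm38, Olig2 lies on chromosome 16 (91225457 to 91228677, plus strand), Foxa2 and Nkx2-2 on chromosome 2 (148042877 to 148046969 and 147177546 to 147194243, minus strand) and Nkx6-1 on chromosome 5 (101658139 to 101664996, minus strand).

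The members thus fell into those in which both EpoR-null samples moved alike and those in which they did not. Relative to the control mean, EpoR-null sample 1 was lower for all 10 members, from -0.29 (Shh) to -1.74 (Ptch1) on the log2 scale. EpoR-null sample 2 was lower for 5 of them, from -0.11 (Shh) to -1.54 (Ptch1), and higher for the other 5, Smo (0.18), Gli1 (0.22), Foxa2 (0.38), Nkx2-2 (0.32) and Olig2 (0.13). EpoR-null sample 2 had 2.27 times the Olig2 level, 1.91 times the Foxa2 level and 1.78 times the Nkx2-2 level of sample 1, whereas Ptch1 (1.153 times), Shh (1.14 times) and Gli3 (0.933 times) were close in the pair. In the controls the highest sample exceeded the lowest by 1.05-fold (Smo) to 1.60-fold (Gli1). Without EpoR-null sample 2 the log2 fold change was -1.63 for Gli1 and -1.06 for Olig2, and without sample 1 it was 0.22 and 0.13. For Ptch1 it was -1.747 without sample 2 and -1.54 without sample 1, and for Gli3 -0.56 and -0.66. Each of these settings rested on 1 EpoR-null library.

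**Figure D3:**
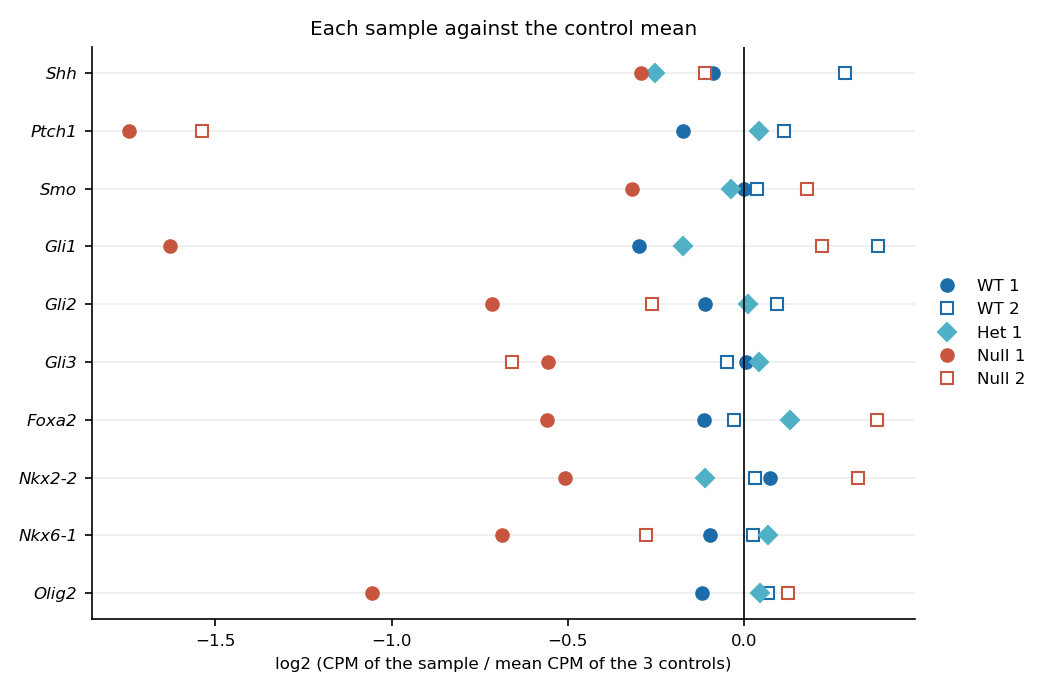
Log2 ratio of the CPM of each sample to the mean CPM of the 3 controls (horizontal axis) for the 10 genes, with wild type in blue, the heterozygote in light blue and EpoR-null in red, and filled or open symbols for samples 1 and 2. The pair of EpoR-null points is tight and to the left for Ptch1 and Gli3, and straddles the controls for Smo, Gli1, Foxa2, Nkx2-2 and Olig2.

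Some other markers moved with this split between the EpoR-null samples, and others ran against it or did not move (these genes, from the lists of neighbouring tissues and other patterning genes, were singled out after their values were seen). Cdx2, a factor of the caudal embryo, had 3.02, 1.41 and 2.90 CPM in controls and 0.151 and 10.04 CPM in EpoR-null samples 1 and 2. T, a marker of notochord and tail bud, had 6.82, 10.9 and 0.519 CPM in controls and 6.77 and 17.8 CPM in EpoR-null samples. Controls thus differed more among themselves for T (20.9-fold) than the EpoR-null samples did (2.63-fold). Nkx2-9, expressed beside the floor plate, had 17.4, 29.8 and 20.3 CPM in controls and 4.04 and 41.2 CPM in EpoR-null samples 1 and 2. Isl1, which marks newborn motor neurons as well as several tissues outside the neural tube, ran the other way, with 26.6, 14.7 and 27.8 CPM in controls and 56.9 and 8.56 CPM in the EpoR-null samples. The EpoR-null libraries therefore differed from each other in axial and regional markers, and the part of this in the values of Gli1, Olig2, Foxa2 and Nkx2-2 was not tested.

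Notochord and gut endoderm, which also make Shh and Foxa2, were gauged by genes other than the members. The 4 notochord markers T, Noto, Chrd and Nog summed to 14.6, 19.4 and 9.38 CPM in controls and to 14.1 and 31.2 CPM in EpoR-null samples 1 and 2, with Noto at 0 reads in the heterozygote and in EpoR-null sample 1. The 8 endoderm markers summed to between 10.5 and 15.6 CPM in controls and to 13.0 and 25.4 CPM in EpoR-null samples, with 3 of the 8 at 0 in some library. Foxa1 gave 5.87, 6.48 and 5.19 CPM of this sum in controls and 5.91 and 5.60 CPM in EpoR-null samples 1 and 2. It is also counted below among the other ventral genes of the neural tube, so the sum does not measure endoderm alone. Cdx2 alone gave 10.04 CPM of the endoderm sum in EpoR-null sample 2, and Chrd was lowest in that sample (2.46 CPM, against 3.18 to 4.15 in controls) while T, Nog and Noto were highest, so the markers of a list did not move together. The part of these tissues in the Foxa2 values was not tested. In bulk tissue, fewer cells expressing a gene and less RNA per cell cannot be told apart. Sclerotome also expresses Ptch1, and the part of the somite RNA in the Ptch1 values was not tested.

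The heterozygote, a single sample that allows no test of its own, had from 0.778 times (Shh) to 1.149 times (Foxa2) the wild type mean across the 10 members, and 1.05 times for both Ptch1 and Gli3. With the heterozygote left out of the exact test of edgeR, both genes stayed called, at a log2 fold change of -1.62 for Ptch1 (FDR 1.31e-10) and -0.59 for Gli3 (FDR 0.0344).

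Among 61 further genes of the pathway and of neural tube patterning, 57 were expressed highly enough to be tested, 5 were lower in EpoR-null neural tubes and 0 were higher, beside 3.84% and 0.929% of all tested genes, with a median log2 fold change of -0.11 beside 0.06. In lists of about 12 genes a single call is near that share. The 4 that were not tested were the ligands Ihh and Dhh, Sim1 and Gsx1. Of the 5 genes tested for ligand acylation, release and carriage, 2 fell. Scube2, whose product carries lipid-modified Shh away from the cells that secrete it, had 84.7, 80.0 and 88.9 CPM in controls and 32.3 and 44.7 CPM in EpoR-null samples (log2 fold change -1.13, standard error 0.19, FDR 3.575e-06). Scube3, a related carrier, had 36.8, 38.1 and 43.9 CPM in controls and 22.6 and 18.3 CPM in EpoR-null samples (log2 fold change -0.96, standard error 0.20, FDR 0.000349). Both EpoR-null samples were below all controls in both genes, and both calls held with any 1 control left out. Both calls were lost in the quasi-likelihood F-test, with or without a replicate block and with the heterozygote as a group of its own. Disp1, needed for release of Shh, did not pass (log2 fold change -0.33, standard error 0.20, FDR 0.377).

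Of 6 further receptors and binding proteins, 1 was called. Cdon, a co-receptor that binds Shh, fell from 105, 97.9 and 115 CPM in controls to 79.7 and 65.0 CPM in EpoR-null samples (log2 fold change -0.55, standard error 0.16, FDR 0.0196). The Cdon call was lost with RLE scaling or library size alone, and with the length and GC correction. The quasi-likelihood F-test did not call Cdon with or without a block, or with the heterozygote as a group of its own. The call was also lost with any 1 control or EpoR-null sample 2 left out. Hhip, like Ptch1 an induced gene whose product sequesters the ligand, had 8.92, 9.31 and 11.1 CPM in controls and 4.55 and 5.11 CPM in EpoR-null samples. The groups did not overlap, and at p = 0.00109 (exact test of edgeR, log2 fold change -1.01, standard error 0.30, FDR 0.0222) it missed the p threshold alone. Of the induced genes Ptch1, Hhip and Gli1, the first 2 were thus low in both EpoR-null samples, and Gli1 was lowest in EpoR-null sample 1 and within the control range in sample 2.

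Of 13 cytoplasmic regulators of the GLI proteins, 1 was called. Sufu, which holds GLI proteins in the cytoplasm and restrains the pathway, fell from 54.1, 61.6 and 53.0 CPM in controls to 33.4 and 32.6 CPM in EpoR-null samples (log2 fold change -0.77, standard error 0.16, FDR 0.000328). The Sufu call was lost without wild type 1, and in the quasi-likelihood F-test without a block or with the heterozygote as a group of its own. Gpr161, a ciliary receptor that also restrains the pathway, had 8.47, 9.86 and 11.4 CPM in controls and 5.0 and 2.36 CPM in EpoR-null samples, with an FDR of 0.0269 but a p of 0.00146 in the exact test of edgeR (log2 fold change -1.44, standard error 0.43). Of 12 genes of the primary cilium, 1 was called, the retrograde motor subunit Dync2h1 (44.0, 34.9 and 49.9 CPM in controls, 25.7 and 20.9 CPM in EpoR-null samples, log2 fold change -0.88, standard error 0.23, FDR 0.00764). Its call was lost without wild type 1, the heterozygote or EpoR-null sample 2. The Dync2h1 call was also lost in the quasi-likelihood F-test without a block or with the heterozygote as a group of its own. The transition zone gene Rpgrip1l was next, at -0.51 (standard error 0.22, FDR 0.162), and the median over the cilium list was -0.15.

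Patterning genes beyond the members gave no call in either direction with all samples, but without EpoR-null sample 2 Nkx2-9 was called lower and Isl1 higher, and without EpoR-null sample 1 Pax7 was called lower. Of 11 other floor plate, ventral progenitor and ventral neuron genes tested, none passed in the exact test, the quasi-likelihood F-test or DESeq2, and 2 were lower with unadjusted p below 0.05 in each of these tests. Over all tested genes, 11.9% were lower at that level in the exact test, and 24% were below it in either direction in the quasi-likelihood F-test. The 2 genes are thus near the share of all genes. The lowest p of the list was that of Ntn1, the floor plate guidance cue, at 198, 202 and 229 CPM in controls and 166 and 161 CPM in EpoR-null samples (log2 fold change -0.36, standard error 0.14, FDR 0.124). Of 10 intermediate and dorsal progenitor factors tested, which Hedgehog signalling limits ventrally, none passed in these 3 tests and none had an unadjusted p below 0.05. The lowest p among them was that of Pax7, at 17.9, 14.6 and 20.7 CPM in controls and 20.3 and 5.67 CPM in EpoR-null samples 1 and 2 (log2 fold change -0.45, standard error 0.55, FDR 0.719). All 10 of these genes overlapped between groups, and their median log2 fold change was -0.04. Of all tested genes, 22.1% had both EpoR-null samples below all controls and 21.2% had both above.

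**Figure D4:**
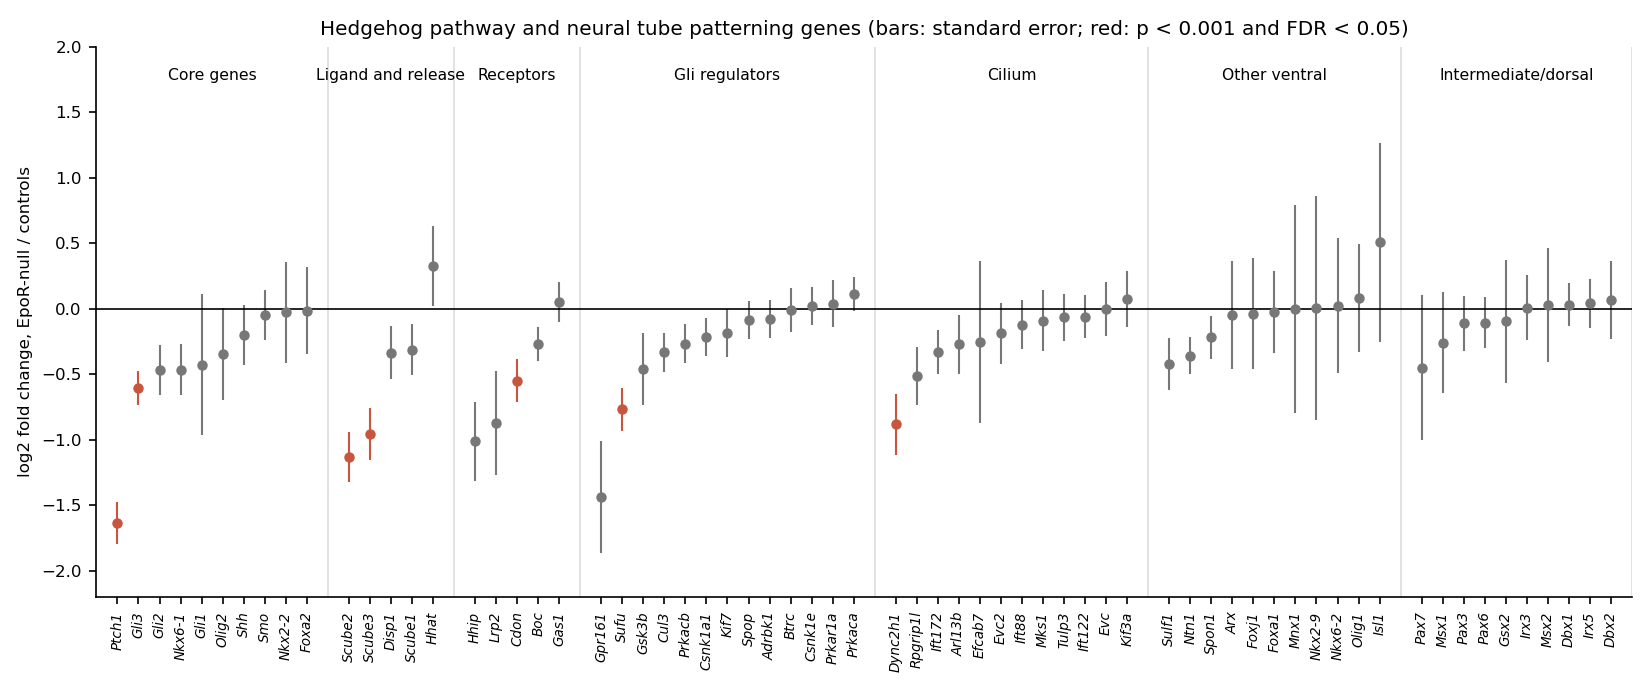
Log2 fold change of EpoR-null against the 3 controls (vertical axis, bars are standard errors) for the 10 genes followed here (core genes) and 56 of the 57 further tested genes by list, sorted within each list, in red where p < 0.001 and FDR < 0.05 in the exact test. Ptch1 is the lowest point at -1.64, red points are all below 0, and none are red among the other ventral or the intermediate and dorsal genes.

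Compared per kilobase of the longest annotated transcript, Smo was the most abundant member in controls (64.2 CPM per kilobase) and Nkx2-2 the least (2.57). Between them in descending order came Olig2 (32.7), Gli1 (24.8), Gli3 (21.1), Ptch1 (15.6), Nkx6-1 (14.9), Shh (13.2), Gli2 (11.9) and Foxa2 (9.54). The neighbours Gli1 and Gli3, and those from Ptch1 to Gli2, differed by less than the SD between controls of at least 1 gene of the pair. In EpoR-null samples Ptch1 was at 4.996 CPM per kilobase, below Foxa2 (9.43), Gli2 (8.61), Nkx6-1 (10.8) and Shh (11.5), which it exceeded in controls. Over the 5 samples, the profiles most like that of Ptch1 by Euclidean distance between centred log2 CPM were those of Trim71 (0.248), Odz4 (0.282) and Pappa (0.314), where the median tested gene lay at 1.91. Those most like Gli3 were Atad2 (0.0306), 9830001H06Rik (0.0379) and Usp31 (0.0465), with a median of 0.849. For Shh they were Lnx2 (0.0754), Lrp5 (0.0817) and Klf11 (0.101), with a median of 0.679.

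Transcript length went together with the fold change in these libraries. The longest annotated transcript was 10383 bases for Ptch1, 8170 for Gli3 and 6637 for Gli2, and between 2120 (Nkx2-2) and 4057 (Gli1) for the other 7. Tested genes were divided by length into 5 bins of 2305. In the bin with the longest transcripts, 5445 bases and more, to which Ptch1, Gli2 and Gli3 belong, 16.1% of genes were called lower and the median log2 fold change was -0.36. In the bin that holds Shh, Foxa2, Nkx2-2 and Olig2 (2078 to 3036 bases), 0.434% were called lower and the median was 0.15. The bin of the longest transcripts is wide. Among 405 tested genes of a length similar to that of Ptch1 the median was -0.52, and 2.47% had a lower log2 fold change than Ptch1. Of the genes similar in length to Gli3 and to Gli2, 27.4% and 28.4% stood lower than the member. When each sample's trend on transcript length and GC content was removed, Ptch1 remained called at -1.10 (likelihood-ratio test of edgeR, FDR 0.00724, against -1.63 without the correction) and Gli3 was no longer called (-0.21, FDR 0.9999, against -0.60 and 0.000655). With the same correction the 4 short genes stood lower, at -0.33 (Shh), -0.31 (Foxa2), -0.30 (Nkx2-2) and -0.58 (Olig2), and Nkx6-1 at -0.61 (FDR 0.139). None of these 5 passed the thresholds. Of the 5 further pathway genes called, Scube2 and Sufu were also called with the correction, and Scube3, Cdon and Dync2h1 were not.

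**Figure D5:**
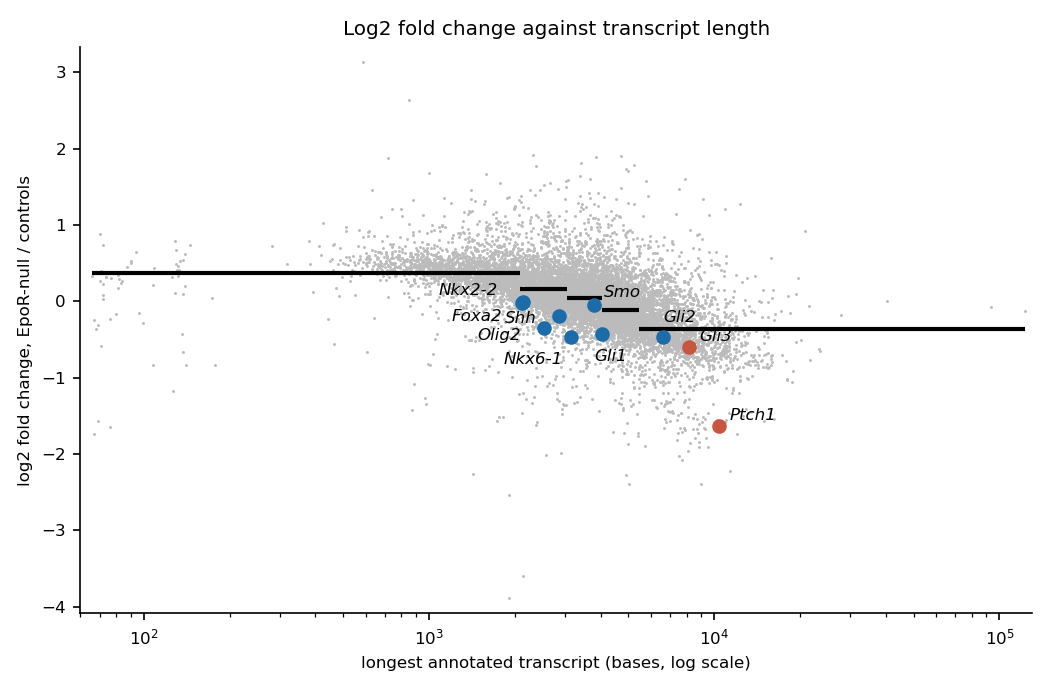
Log2 fold change of EpoR-null against controls (vertical axis) by length of the longest annotated transcript (horizontal log axis, bases) for 11525 tested genes in grey, with the 10 members in colour (red where called) and black lines at the median of each bin of 2305 genes by length. Medians fall from 0.36 to -0.36 from the shortest to the longest bin, and Ptch1 lies at -1.64, below the line of its own bin.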

How the data were processed

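The authors trimmed reads (Trimmomatic 0.32), aligned them (TopHat, with version 2.1.0 in the submitters' processing notes) and deposited raw HTSeq 0.6.1 read counts per gene symbol, 1 table per sample; the notes name mm9 and the paper's methods another species' build, and the annotation and strand setting are not given in the sources used here. Between 8.12% and 11.0% of uniquely aligned reads fell outside genes and 1.84% to 2.31% were ambiguous, and these summary lines were left out. Antisense genes overlap Shh, Gli1 and Nkx2-2, and without strand their reads cannot be told apart. Groups and sample numbers came from the sample titles. Counts were fitted in R 4.3.3 with edgeR 4.0.16 with TMM and exactTest, as the methods state, and, as chosen here, tagwise dispersions and Benjamini-Hochberg adjustment for genes above 1 CPM in at least 2 samples. Standard errors come from the negative binomial information. Reads per gene set the counting error, largest among members for Nkx2-2. Alternatives were the quasi-likelihood F-test without and with a replicate block, DESeq2 1.42.0, other scalings and filters, thinned counts, each sample left out, the heterozygote as its own group in the quasi-likelihood F-test, and a likelihood-ratio test with offsets for length and GC content (loess span 0.5). Lengths and positions came from GENCODE M21 (GRCm38), matched by symbol for 90.7% of tested genes and all 10 members. Named genes were the members, every called gene and the next by p of each list, and the 3 nearest profiles for Shh and each called member. Members, lists and alternatives were chosen with earlier results of these data known. Tested on simulated data with known changes, all fits recovered most changed genes in the right direction, and all made more false calls than the FDR states, the quasi-likelihood F-test fewest. One tested receptor gene is counted in its list but is not reported here by value.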

Additional observations from a re-analysis of the deposited data

How the results depend on the processing

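Ptch1 was lower under all 16 alternatives (log2 fold change -1.747 to -1.10) and lost its call in 2, the quasi-likelihood F-test without a block (FDR 0.0590) and the same test with the heterozygote as a group of its own (FDR 0.314). Gli3 was lower under all 16 (-0.66 to -0.21) and lost its call in 4, these 2, without wild type 1 (FDR 0.0779) and with length and GC offsets (FDR 0.9999). The cause was not tested. The fit with the heterozygote apart changed both the controls and the test, and the exact test without the heterozygote called 2 members. The number of members called was 0 in the quasi-likelihood F-test with the heterozygote pooled or apart, 1 with offsets, and 1 to 6 with single samples left out, 1 without wild type 1 and 6 without EpoR-null sample 2. The 5 further pathway genes became 0, 0 and 2 under the first 3 of these, and 2 (without wild type 1) to 11 (without EpoR-null sample 1) with single samples left out, with 3 without the heterozygote. Over all genes 606 were called, against 0 in the quasi-likelihood F-test (3052 genes at unadjusted p below 0.05), 0 in that test with the heterozygote apart, 1028 with DESeq2, 149 with offsets, 928 at FDR < 0.05 alone, and 115 (without wild type 1) to 2296 (without EpoR-null sample 1) with single samples left out, where the values without wild type 2, the heterozygote and EpoR-null sample 2 were 294, 253 and 980.

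With the sample number as a replicate block, the quasi-likelihood F-test called 2 members (Ptch1 and Gli3), 2 further pathway genes and 291 genes in all. The samples share only a number, as no label says that it marks a litter or day. Across 12703 genes the difference between the wild type samples correlated with that between the EpoR-null samples (Pearson's r 0.427, Spearman's rho 0.529), given as a description.

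Members without a call changed sign in a few settings. Without EpoR-null sample 1 the log2 fold change was 0.18 for Smo, 0.22 for Gli1, 0.38 for Foxa2, 0.32 for Nkx2-2 and 0.13 for Olig2, and without EpoR-null sample 2 it was -0.32, -1.63, -0.56, -0.51 and -1.06 in the same order. For Foxa2 it was 0.05 without the heterozygote and 0.0562 with it apart in the quasi-likelihood fit, and for Nkx2-2 0.0073 without wild type 1. Scaling by RLE or library size, both filters and thinning left the members called at 2. Depth limits Nkx2-2 most, with 76 reads in the smallest library.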
